A study of Homo sapiens with 15 samples.

Results

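The genes that write, copy and remove DNA methylation were followed in BEAS-2B cells, an immortalized human bronchial epithelial line, after exposure to fine particulate matter (PM2.5). The 8 genes were chosen by name from the 58219 genes of the count table: the methyltransferases DNMT1, DNMT3A and DNMT3B, the DNMT1 partner UHRF1, the dioxygenases TET1, TET2 and TET3, and the DNA glycosylase TDG. All 8 were in the table and all 8 passed the filter on low counts. RNA was measured in 15 libraries, 3 for each of 5 conditions. In the 24-h protocol, cells received vehicle alone, PM2.5 at 1 µg/cm2, or PM2.5 at 30 µg/cm2. In the repeated protocol, cells received vehicle alone or 1 µg/cm2 every day until collection at 7 days; the labels give 7 days of treatment and the methods give fewer daily doses before collection on day 7. The particles came from filters exposed in Beijing in winter and were extracted in water. All cells were of the same line and were grown without serum on collagen-coated plastic. Libraries of a protocol that carry the same number come from the same experiment, so experiments are shown separately throughout.

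Cytosine methylation at CpG sites is set by DNMT3A and DNMT3B and copied to the new strand at replication by DNMT1, which UHRF1 recruits to hemimethylated DNA. TET enzymes oxidize 5-methylcytosine, and TDG removes the later oxidation products so that base excision repair can restore an unmodified cytosine. UHRF1 and DNMT1 are known as genes of proliferating cells.

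Summed over genes, the libraries ranged from 21460981 to 34724765 counts (median 29243177), and 3 counts corresponded to 0.0864 to 0.140 CPM (counts scaled to a common library total). Epithelial markers were present in every library, with KRT5 at 110 CPM or more, although the basal keratin KRT14 did not exceed 17.4 CPM. The mesenchymal genes VIM (146 to 668 CPM) and COL1A1 (22.2 to 51.9 CPM) were present too. Of the leukocyte markers, PTPRC did not exceed 2 counts in any library, whereas CD14 ran from 2.30 to 23.4 CPM. In bulk RNA, fewer cells that express a gene and less RNA per cell cannot be told apart.

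DNMT1 and UHRF1, the maintenance pair, have RefSeq promoter windows (250 bases before to 50 bases after a start site, GRCh38.p14) that contain an E2F motif, searched as TTTCCCGC, TTTCGCGC, TTTGCCGC or TTTGGCGC on both strands. These sequences are shown because the pair is set beside S-phase genes later in the results. The motif is in capitals, and the first 2 lines hold it on the opposite strand. The first stretch lies at chr19:10194937-10194966 on the minus strand and spans the DNMT1 start site. The second lies at chr19:4909476-4909505 and the third at chr19:4909973-4910002, both on the plus strand; the second spans a start site of UHRF1 with the motif before it, and the third lies before another start site.
DNMT1: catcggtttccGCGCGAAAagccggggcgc
UHRF1, first window: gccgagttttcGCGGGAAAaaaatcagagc
UHRF1, second window: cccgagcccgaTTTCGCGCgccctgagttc
Of all 35116 promoter windows, 3.31% held such a motif. None of the windows of DNMT3A, DNMT3B, TET1, TET2, TET3 or TDG held these letters, nor did the remaining window of UHRF1. Other motifs were searched in the same way. The xenobiotic response core GCGTG was in windows of DNMT1, UHRF1, TET1, TET3 and TDG, and in 36.54% of all windows. The antioxidant response motif TGACNNNGC was in the first window of UHRF1 and in 13.35% of all windows. A match is a description of the sequence, and binding was not measured here.

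Levels were compared between genes only as CPM per kilobase of exon. DNMT1 was the most abundant, with a median of 32.6 CPM per kilobase over the 15 libraries, and it was above UHRF1 (median 11.7) in 15 of 15. UHRF1 was in turn above TDG (median 7.37) in 15 of 15. TET3 (median 4.38) and DNMT3B (median 3.46) changed places between the protocols. TET3 was above DNMT3B in 2 of 9 libraries of the 24-h protocol, where their ranges overlapped in all 3 conditions, and in 6 of 6 of the 7-d protocol, where they did not overlap. DNMT3A (median 2.28) and TET2 (median 2.26) also changed places, with DNMT3A above TET2 in 3 of 3 libraries at 30 µg/cm2 (2.36 to 3.13 against 1.10 to 2.02 CPM per kilobase) and below it in 3 of 3 of the 7-d controls (2.55 to 2.77 against 3.06 to 3.51). In the other 3 conditions their ranges overlapped. TET1 was the lowest in every library, at 0.355 to 0.991 CPM per kilobase.

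**Figure D1:**
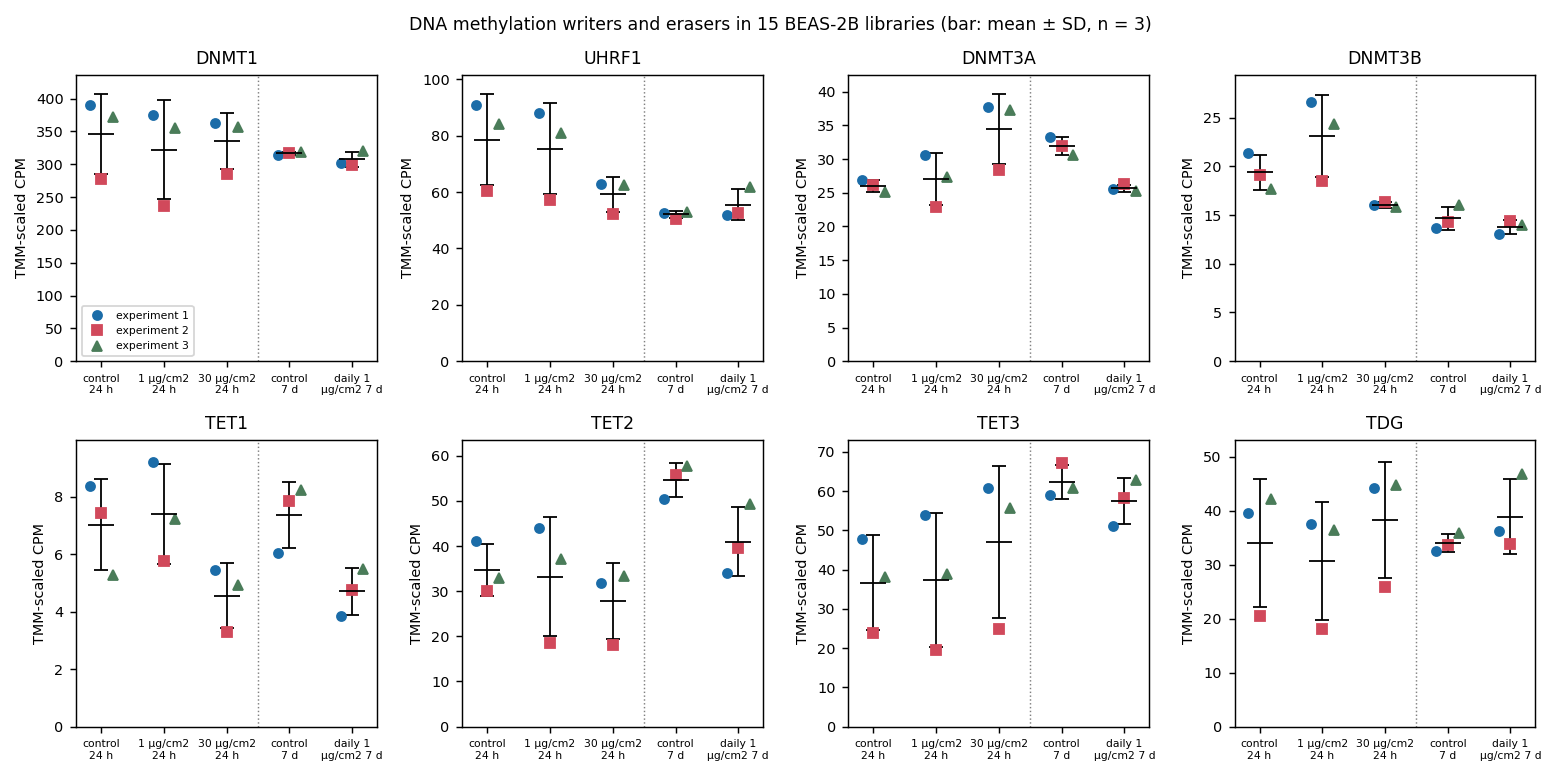
Level of each gene in each of the 15 libraries (y axis, CPM scaled by the TMM method) by condition (x axis); symbols mark the experiment, and bars give the mean ± SD of 3 libraries. In the 24-h protocol the squares of experiment 2 sit lowest for DNMT1, UHRF1, TET2, TET3 and TDG in every condition, and the 7-d libraries lie closer together for DNMT1.

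The experiments of the 24-h protocol differed for most of these genes, whatever the exposure. TET3 read 47.8, 23.9 and 38.1 CPM in the controls of experiments 1, 2 and 3. TDG read 39.5, 20.5 and 42.1 CPM in the same libraries. Experiment 2 was low for both, and it was also low for both at 1 and 30 µg/cm2. In the fit with a term for the experiment (the replicate block), the 24-h experiments differed for 5 of 8 genes by edgeR's quasi-likelihood test, a test added after the values were seen: TET3 (log2 difference of experiment 2 from experiment 1 -1.25, adjusted p = 1.18e-05), TDG (-0.92, adjusted p = 1.65e-05), DNMT1 (-0.50, adjusted p = 0.000626), UHRF1 (-0.50, adjusted p = 0.00108) and TET2 (-0.82, adjusted p = 0.0015). Of all genes tested, 52.1% differed in the same way of testing, so these genes did not stand apart from the rest. DNMT3A, DNMT3B and TET1 did not pass (adjusted p = 0.0686, 0.289 and 0.0527). Among the 7-d experiments none of the 8 passed, and 0% of all genes did.

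The experiments of the 24-h protocol also differed by exon length, taken as the median log2 ratio to the mean of the other experiments. In the control of experiment 2 this median was 0.22 for the fifth of genes with the shortest exons and -0.24 for the fifth with the longest. At 1 µg/cm2 the medians of experiment 2 were 0.54 and -0.52, and at 30 µg/cm2 0.50 and -0.40. In the controls experiment 1 ran as far the other way (-0.22 and 0.22), and experiment 3 was nearly flat (-0.0046 and 0.012). At 1 and 30 µg/cm2 experiments 1 and 3 both ran against experiment 2. DNMT1, DNMT3A, TET1, TET2 and TET3 have long exons (9288 to 16474 bases), whereas TDG, UHRF1 and DNMT3B are shorter (4630 to 5145 bases). Mitochondrial genes took 4.13% to 4.40% of the counts in 24-h experiment 2 and 2.76% to 3.42% in 24-h experiments 1 and 3. In the 7-d libraries they took 2.37% to 2.90%. The part of exon length and of mitochondrial RNA in the values was not tested.

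**Figure D2:**
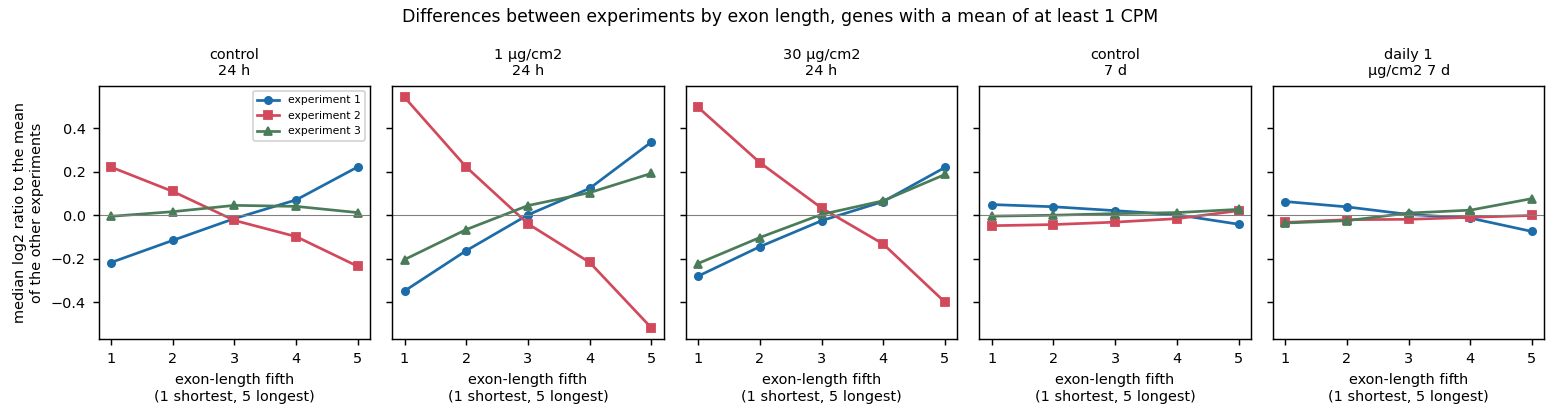
Median log2 ratio of each library to the mean of the other experiments of its condition (y axis) by exon length in 5 equal groups of genes (x axis), for genes with a mean of at least 1 CPM; each panel is a condition and each line an experiment. Experiment 2 of the 24-h protocol runs from 0.22 to -0.24 in the control, from 0.54 to -0.52 at 1 µg/cm2 and from 0.50 to -0.40 at 30 µg/cm2, while experiment 2 of the 7-d protocol stays between -0.05 and 0.02. In the 24-h control experiment 1 runs the other way, from -0.22 to 0.22.

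The first comparison asked how a single high exposure changed these genes. Between experiments the spread was wide, and without a term for the experiment 0 of 8 passed at 30 µg/cm2 against the control, where 10.1% of all genes did; 3 of 8 were under an unadjusted p of 0.05. With the replicate block 4 of 8 passed, against 29.6% of all genes. UHRF1 and TET1 fell, and DNMT3A and TET3 rose. TET1 alone also reached the fold threshold of 0.6 on the log2 scale, which 15.2% of all genes did with the block.

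UHRF1 read 90.9, 60.3 and 84.3 CPM in the controls and 62.9, 52.1 and 62.4 CPM at 30 µg/cm2. Each exposed library was below the control of its own experiment, although the groups overlapped because of the control of experiment 2. The log2 change was -0.41 (SE 0.174, adjusted p = 0.168) without the block and -0.39 (SE 0.0885, adjusted p = 0.00539) with it. DNMT1, the enzyme that UHRF1 recruits, read 390, 277 and 372 CPM in the controls and 363, 285 and 357 CPM at 30 µg/cm2. Its groups overlapped throughout, and the log2 change was -0.05, with a 95% interval from -0.42 to 0.33 (adjusted p = 0.913).

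The ratio of UHRF1 to DNMT1 within a library, per exon length, does not depend on library scaling. It was 0.444, 0.415 and 0.431 in the 24-h controls and 0.447, 0.461 and 0.433 at 1 µg/cm2. At 30 µg/cm2 it was 0.330, 0.347 and 0.333. The values at 30 µg/cm2 lay below all 6 other libraries of the protocol, experiment 2 included. The ratio was also low in the 7-d controls, at 0.319, 0.304 and 0.316, and after daily exposure, at 0.327, 0.335 and 0.367. No test is given for these ratios. Against the 3 controls alone, an exact 2-sided permutation test cannot fall below 0.05.

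DNMT3A, a de novo methyltransferase, read 26.9, 26.1 and 25.1 CPM in the controls and 37.7, 28.4 and 37.2 CPM at 30 µg/cm2. It was higher in 9 of 9 pairs of libraries and the groups did not overlap. The log2 change was 0.40 (SE 0.132, adjusted p = 0.0701) without the block and 0.39 (SE 0.0990, adjusted p = 0.01) with it. DNMT3B, the other de novo enzyme, read 21.3, 19.1 and 17.7 CPM in the controls and 16.0, 16.3 and 15.8 CPM at 30 µg/cm2. It was lower in 9 of 9 pairs and did not pass either fit (log2 change -0.27, adjusted p = 0.263, and 0.11 with the block). The ratio of DNMT3A to DNMT3B per exon length was 0.485, 0.528 and 0.546 in the controls and 0.907, 0.670 and 0.908 at 30 µg/cm2. It was also high without particles in the 7-d controls, at 0.936, 0.863 and 0.736, and was 0.757, 0.703 and 0.696 after daily exposure.

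**Figure D3:**
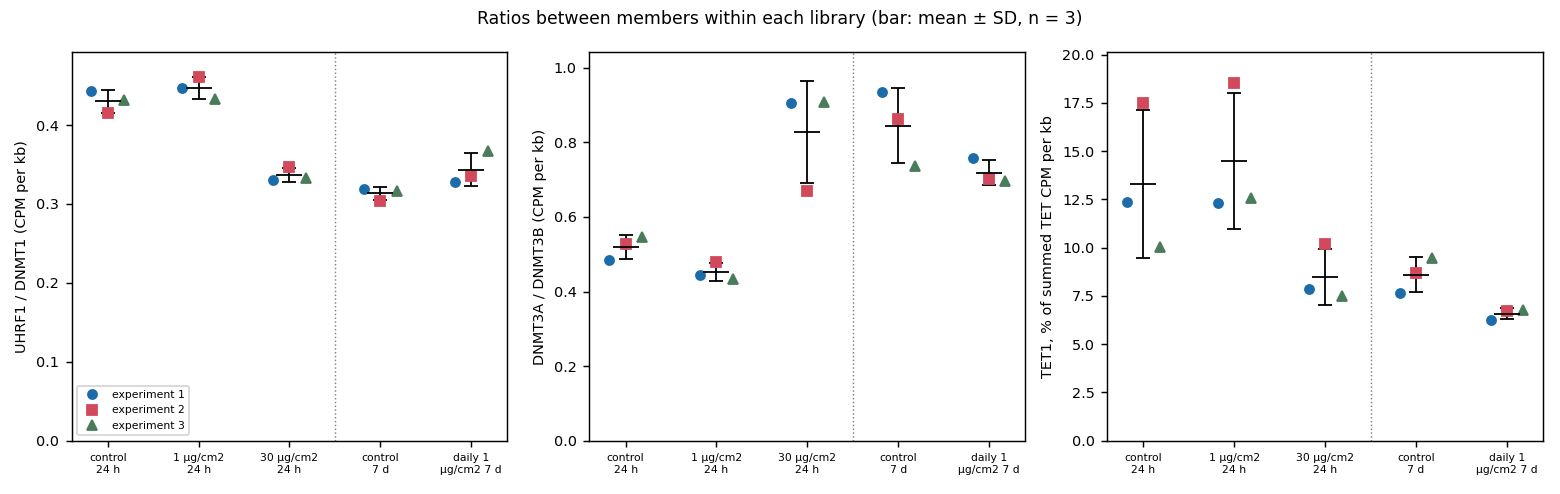
Ratios between genes within each library (y axes; CPM per kilobase of exon) by condition (x axis), with symbols for the experiment and bars for the mean ± SD of 3 libraries. UHRF1 to DNMT1 was 0.330 to 0.347 at 30 µg/cm2 and 0.415 to 0.444 in the 24-h controls, DNMT3A to DNMT3B was 0.670 to 0.908 against 0.485 to 0.546, and the share of TET1 was 7.48% to 10.2% against 10.0% to 17.5%. In the untreated 7-d controls the values were 0.304 to 0.319, 0.736 to 0.936 and 7.63% to 9.46%, in the same order.

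TET1 read 8.36, 7.44 and 5.28 CPM in the controls and 5.45, 3.29 and 4.93 CPM at 30 µg/cm2. It was lower in each experiment, with log2 ratios of -0.62, -1.18 and -0.10, so experiment 3 moved little. The log2 change was -0.62 (SE 0.251, adjusted p = 0.142) without the block and -0.63 (SE 0.176, adjusted p = 0.0164) with it. TET3 read 60.7, 25.0 and 55.7 CPM at 30 µg/cm2, above the control of its own experiment in each case (47.8, 23.9 and 38.1 CPM). The groups overlapped because of experiment 2, and the log2 change was 0.36 (SE 0.356, adjusted p = 0.601) without the block and 0.32 (SE 0.108, adjusted p = 0.0385) with it.

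TET2 read 41.2, 30.1 and 32.8 CPM in the controls and 31.9, 18.1 and 33.4 CPM at 30 µg/cm2, and it did not pass (log2 change -0.36, adjusted p = 0.0866 with the block). TDG, which acts after the TET enzymes, read 44.1, 25.8 and 44.8 CPM at 30 µg/cm2 and did not pass (log2 change 0.19, adjusted p = 0.149 with the block). The summed TET level per exon length was 7.30, 4.57 and 5.67 in the controls and 7.47, 3.49 and 7.10 at 30 µg/cm2, so the groups overlapped in the sum. With the block, 0 of 8 genes passed at 30 µg/cm2 without experiment 1, 5 without experiment 2 and 3 without experiment 3. The share of all genes that passed was not computed for these fits.

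**Figure D4:**
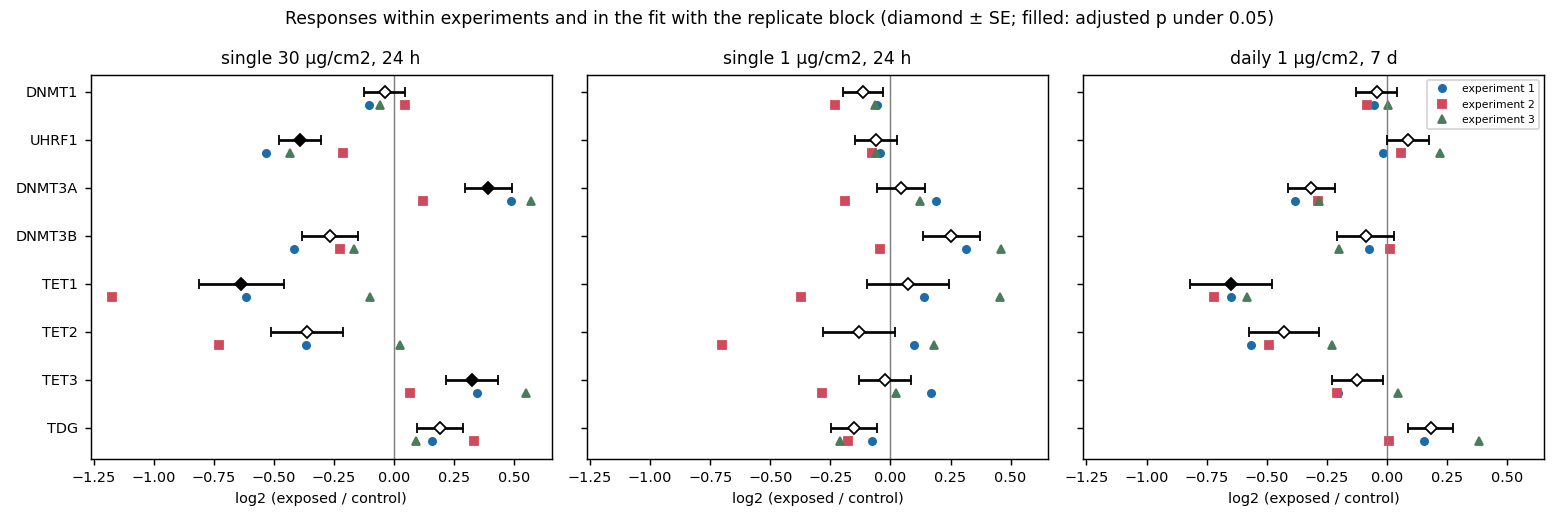
Log2 ratio of exposed to control cells (x axis) for each gene (y axis) in 3 panels, one for each exposure; small symbols are single experiments, and diamonds give the estimate ± SE with the replicate block, filled where the adjusted p was under 0.05. At 30 µg/cm2 UHRF1 (-0.39) and TET1 (-0.63) are filled on the left and DNMT3A (0.39) and TET3 (0.32) on the right, no diamond is filled at 1 µg/cm2, and after daily exposure TET1 alone is filled (-0.65).

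The single low exposure addressed whether 1 µg/cm2 moved the same genes within 24 h. None of the 8 passed, without the block (0.0625% of all genes did, and 0 of 8 were under an unadjusted p of 0.05) or with it (0.472%). DNMT3B had the largest estimate without the block, with 26.6, 18.5 and 24.3 CPM against 21.3, 19.1 and 17.7 CPM in the controls. Its log2 change was 0.26, with a 95% interval from -0.04 to 0.56. For DNMT1 the interval ran from -0.48 to 0.27, for UHRF1 from -0.43 to 0.32 and for DNMT3A from -0.23 to 0.34. These intervals are from the fit without the block. They were widest for TET3, from -0.73 to 0.79, and TDG, from -0.80 to 0.50, and this fit could not have detected sizeable changes in them. With the block the log2 changes were -0.02 (SE 0.108) for TET3 and -0.15 (SE 0.0956) for TDG.

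Against each other, the single exposures differed in DNMT3B, the only gene of the 8 to pass without the block (log2 change -0.53 at 30 relative to 1 µg/cm2, SE 0.140, adjusted p = 0.0286), where 10.1% of all genes passed. DNMT3B was lower at 30 µg/cm2 in 9 of 9 pairs. With the block 6 of 8 passed, against 31.4% of all genes: DNMT3B (-0.52), TET1 (-0.71) and UHRF1 (-0.33) were lower, and DNMT3A (0.35), TET3 (0.35) and TDG (0.34) were higher at 30 µg/cm2. TET1 also reached the fold threshold, as did 15.6% of all genes. Without the filter on low counts, DNMT3B no longer passed in the fit without the block. Both comparisons with 30 µg/cm2 use the same exposed libraries.

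Daily exposure to 1 µg/cm2 was compared with the 7-d control. Without the block 0 of 8 passed (0.25% of all genes did), with DNMT3A and TET1 under an unadjusted p of 0.05. In a fit to the 7-d libraries alone, 3 passed, and the share of all genes that passed in that fit was not computed. With the block TET1 passed, the only gene of the 8 to do so, where 12.2% of all genes did; TET1 also reached the fold threshold, as did 4.39%. TET1 read 6.04, 7.84 and 8.21 CPM in the controls and 3.85, 4.76 and 5.49 CPM after daily exposure. The groups did not overlap, and the log2 ratios within the experiments were close to each other, at -0.65, -0.72 and -0.58. The log2 change was -0.65 (SE 0.248, adjusted p = 0.315) without the block and -0.65 (SE 0.171, adjusted p = 0.0289) with it, and the call was lost when any of the 3 experiments was left out.

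DNMT3A read 33.3, 32.0 and 30.6 CPM in the 7-d controls and 25.6, 26.2 and 25.2 CPM after daily exposure. The groups did not overlap and all 9 pairs were lower, yet the gene did not pass (log2 change -0.32, adjusted p = 0.36, and 0.0541 with the block). TET2 read 50.4, 55.8 and 57.8 CPM in the controls and 34.0, 39.7 and 49.3 CPM after daily exposure. It too was lower in all 9 pairs without passing (log2 change -0.41, adjusted p = 0.607, and 0.0732 with the block). The fit without the block took the spread of each gene from all 15 libraries, those of the 24-h protocol included. The SE after daily exposure was thus close to that at 30 µg/cm2 (DNMT3A 0.131 and 0.132, TET2 0.283 and 0.284). These tests therefore do not show that DNMT3A and TET2 were unchanged after daily exposure. UHRF1 read 52.6, 50.5 and 53.0 CPM in the controls and 52.0, 52.6 and 61.8 CPM after daily exposure, and DNMT1, DNMT3B, TET3 and TDG also stayed above the threshold (adjusted p from 0.219 to 0.781 with the block).

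The responses of both protocols were compared by the difference of their log2 changes. For daily against single 1 µg/cm2, 0 of 8 genes passed, without the block (0% of all genes) or with it (1.18%), and none of the 8 was under an unadjusted p of 0.05 without the block. For daily 1 µg/cm2 against single 30 µg/cm2, 0 of 8 passed without the block (1.83% of all genes) and 2 of 8 with it (21.2%). DNMT3A was higher at 30 µg/cm2 and lower after daily exposure, a difference of -0.71 (SE 0.139, adjusted p = 0.00452 with the block, 0.0712 without), which also reached the fold threshold, as did 14.6% of all genes. UHRF1 differed by 0.48 (SE 0.125, adjusted p = 0.0181 with the block, 0.349 without). TET1 had similar estimates in both, with a difference of -0.01 (SE 0.246, adjusted p = 0.977 with the block).

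The protocols also differed without any particles. Against the 24-h controls, UHRF1 (log2 change -0.59, SE 0.175, adjusted p = 0.0209) and DNMT3B (-0.40, SE 0.140, adjusted p = 0.0452) were lower in the 7-d controls, 2 of 8 where 28.9% of all genes passed. UHRF1 was 52.1 ± 1.32 CPM (SD, n = 3) in the 7-d controls and 78.5 ± 16.1 CPM in the 24-h controls. DNMT3A, TET2 and TET3 were higher in 9 of 9 pairs without passing (log2 changes 0.30, 0.66 and 0.77, adjusted p = 0.108, 0.0991 and 0.124). Time in culture, plating and experiment differ between the protocols and cannot be told apart, and the block cannot be used here. Leaving out the 24-h control of experiment 1 or any 7-d control gave 0 of 8, and leaving out the 24-h control of experiment 3 gave 1. Leaving out the libraries of 24-h experiment 2 gave 7. The share of all genes that passed was not computed for these fits, so it is not known whether the 7 stand apart from it.

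Partners of these genes were taken from 4 lists of 46 genes, of which 42 were tested. At 30 µg/cm2, 5 of 42 passed without the block (3 higher) and 17 of 42 with it (8 higher), beside 10.1% and 29.6% of all genes. HELLS, a chromatin remodeler needed for normal methylation, read 120, 152 and 130 CPM in the controls and 86.3, 114 and 85.7 CPM at 30 µg/cm2, and it fell in both fits (log2 change -0.49, adjusted p = 0.0363). GADD45A, a stress-response gene linked to active demethylation, read 56.1, 45.6 and 60.2 CPM in the controls and 160, 91.0 and 174 CPM at 30 µg/cm2, and it rose (log2 change 1.39, SE 0.214, adjusted p = 0.000983). The methyl-CpG reader MBD1 rose (0.62, adjusted p = 0.0161). BHMT, which makes methionine from betaine, passed but held 0, 1 and 0 counts in the controls and 9, 4 and 8 at 30 µg/cm2.

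Of the 14 tested genes of demethylation and base excision repair, 1 passed at 30 µg/cm2 without the block (GADD45A). With the block 4 were higher, among them LIG3 (0.66) and POLB (0.44). In the same fit 4 were lower, among them GADD45B (-0.67), NEIL1 (-0.54) and XRCC1 (-0.32), and the other 6 did not pass. GADD45B thus went against GADD45A, with an adjusted p of 0.00121 with the block and 0.0692 without. At 1 µg/cm2 for 24 h, 0 of the 42 passed in either fit, beside 0.0625% and 0.472% of all genes. After daily exposure 0 of 42 passed without the block and 7 with it (2 higher, 5 lower), beside 0.25% and 12.2% of all genes. The glycosylase gene SMUG1 (log2 change 0.56, adjusted p = 0.00638, and 0.235 without the block) and the replication clamp gene PCNA (0.42, adjusted p = 0.0176, and 0.442 without) rose with the block. The histone methyltransferase gene EHMT2, with 37.0, 32.5 and 36.3 CPM in the controls and 24.4, 25.0 and 20.5 CPM after daily exposure, fell with the block (log2 change -0.60, adjusted p = 0.0123, and 0.118 without). LIG3 fell with the block after daily exposure (-0.42, adjusted p = 0.00951, and 0.565 without).

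S-phase genes were followed because UHRF1 and DNMT1 are known to be expressed with them. At 30 µg/cm2, 3 of 14 passed without the block, all lower: CCNA2 (log2 change -0.78, adjusted p = 0.00263), MCM4 (-0.52, adjusted p = 0.0166) and MCM2 (-0.39, adjusted p = 0.034). With the block 9 of 14 were lower and CDC6 was higher. Of all genes, 10.1% passed without the block and 29.6% with it. The median log2 change of the list was -0.32, beside 0.03 for all genes tested. After daily exposure the median was -0.04, and with the block CDC45 and GINS2 were higher. UHRF1 thus lay on the side of most S-phase genes at 30 µg/cm2 and DNMT1 did not pass; the part of the cell cycle in these values was not tested.

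Over the 15 libraries, the gene whose log2 CPM followed DNMT1 most closely was PRKAR2A (Pearson's r = 0.979). For UHRF1 it was UBP1 (0.952), for DNMT3A JAK1 (0.940), for DNMT3B LSS (0.926), for TET1 COL4A3 (0.902), for TET2 LIFR (0.982), for TET3 BTAF1 (0.986) and for TDG NEK4 (0.973). These values are descriptions over libraries that share experiments and protocols, and the difference between the 24-h experiments enters all of them.

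In the genome (GRCh38, coordinates as in the deposited table), DNMT1 lies at chr19:10133345-10231286 and UHRF1 at chr19:4903080-4962154. DNMT3A lies at chr2:25227855-25342590, DNMT3B at chr20:32762385-32809356 and TDG at chr12:103965804-103988874. TET1 lies at chr10:68560656-68694482, TET2 at chr4:105145875-105279816 and TET3 at chr2:73986404-74108176. Of the exon bases of DNMT1, 0.704% were shared with S1PR2, and no other gene of the 8 shared exon bases with another gene of the table.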

How the data were processed

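The authors deposited whole-number counts per gene, without normalization, from single-end reads of polyadenylated RNA; the labels name STAR and featureCounts. The methods give GRCh38 and the processing notes hg19; the start coordinates of DNMT3A, DNMT3B, TET2 and UHRF1 match GRCh38. The annotation and the strand setting are not given in the sources used here. Counts were analysed with edgeR 4.0.16 in R 4.3.3: filterByExpr kept 17599 genes, libraries were scaled by TMM, and a quasi-likelihood model with 1 mean for each of 5 conditions was fitted to 15 libraries. A gene passed at a Benjamini-Hochberg adjusted p under 0.05 over all genes tested. A gene also reached the fold threshold at an absolute log2 change of at least 0.6.

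The series record calls the last number of a sample an experimental batch, so the comparisons inside each protocol were also fitted with that number as a replicate block. Deviations from the group means correlated between libraries of the same number (mean r 0.529 at 24 h and 0.154 at 7 d, every pair above 0.1). Between libraries of different numbers the mean r was -0.231 and -0.0773, although single 24-h pairs ran from -0.683 to 0.453. Deviations within a group cancel, so a positive mean for the same number goes with a negative mean for the others. The methods state that the experiments were performed independently.

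The members and lists were chosen with earlier results of these data known. Named were all 8 members, genes of the lists that passed in either fit or give context, and the gene most correlated with each member. The values of 1 gene of the lists are not reported here. The fits were tested on simulated data. Alternatives were other scalings, filters, DESeq2 1.42.0 and leaving out libraries; those of the fit with the block were added after seeing the data. The 3-count floor covers counting error only.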

Additional observations from a re-analysis of the deposited data

Results flagged for a closer look

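The change after daily exposure to 1 µg/cm2 differed from the change after a single 30 µg/cm2 in 2 of the 8 genes by edgeR's test of the difference itself with the replicate block. For DNMT3A the difference was -0.71 on the log2 scale (adjusted p = 0.00452), with every experiment higher than its control at 30 µg/cm2 and every experiment lower after daily exposure. For UHRF1 the difference was 0.48 (adjusted p = 0.0181). Neither passed without the block (adjusted p = 0.0712 and 0.349). Dose, number of exposures and time in culture all differ between these arms and cannot be told apart.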

How the results depend on the processing

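Counts of genes that passed changed with the settings below, and the cause was not tested. Apart from the fits to all libraries with and without the block, the share of all genes that passed was not computed. The counts below therefore do not show whether members or partners changed more than other genes. Of the 8 members at 30 µg/cm2, 0 passed without the replicate block, 4 with it, 1 with DESeq2, 0 to 1 when a library was left out and 4 without 24-h experiment 2. After daily exposure 0 passed, with 3 in a fit to the libraries of the comparison alone and 1 with the block. Between 30 and 1 µg/cm2, 1 passed, against 0 without a filter, 0 in a fit to those libraries alone, 6 with the block, 2 with DESeq2, 0 to 3 without a library and 4 without experiment 2. The difference between daily and single low exposure went from 0 to 4 without experiment 2. That between daily low and single high exposure went from 0 to 2 with the block, 1 with DESeq2, 0 to 1 without a library and 3 without experiment 2. Between the controls, 2 became 4 with those libraries alone, 0 to 2 without a library and 7 without experiment 2.

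Of the 42 partners, 5 at 30 µg/cm2 became 1 with the libraries of the comparison alone, 17 with the block, 2 to 11 without a library and 22 without experiment 2. After daily exposure 0 became 16 with those libraries alone, 7 with the block and 1 with DESeq2. Between 30 and 1 µg/cm2, 4 became 0 with those libraries alone, 17 with the block, 8 with DESeq2, 2 to 11 without a library and 20 without experiment 2. The daily against single low difference went from 0 to 12 without experiment 2. The daily low against single high difference went from 2 to 1 under RLE scaling, a filter of 1 CPM and the libraries alone, 14 with the block, 4 with DESeq2, 0 to 5 without a library and 21 without experiment 2. Between the controls, 12 became 4 to 9 without a library and 27 without experiment 2.

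With the block and without an experiment, members ranged from 0 to 5 at 30 µg/cm2, 0 to 1 at 1 µg/cm2, 0 after daily exposure, 0 to 7 for 30 against 1 µg/cm2, 0 to 5 for daily against single low and 0 to 3 for daily low against single high exposure. After daily exposure 2 passed with no filter and 2 in the current mode of edgeR. Partners ranged likewise from 11 to 29, 0 to 7, 0, 14 to 30, 0 to 18 (1 with no filter) and 5 to 25.

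Log2 changes of single members, fitted without the block, changed sign under an alternative in 57 cases, and none of those members had passed. Without a library, the change at 30 µg/cm2 ran from -0.19 to 0.0530 for DNMT1 and from -0.10 to 0.38 for TDG. At 1 µg/cm2 it ran from -0.23 to 0.0808 for DNMT1, -0.20 to 0.11 for UHRF1, -0.0312 to 0.16 for DNMT3A, -0.0949 to 0.23 for TET1, -0.30 to 0.23 for TET2 (0.14 without experiment 2), -0.31 to 0.34 for TET3 (-0.0224 with the block) and -0.40 to 0.12 for TDG. For 30 against 1 µg/cm2, DNMT1 ran from -0.14 to 0.15 (-0.0446 without experiment 2). For daily against single low exposure, DNMT1 ran from -0.11 to 0.19, UHRF1 from -0.0099 to 0.30 and TET3 from -0.45 to 0.19. For daily low against single high exposure, DNMT1 ran from -0.0883 to 0.15 (-0.0039 with the block), TET1 from -0.20 to 0.16 (0.0298 with upper-quartile scaling), TET2 from -0.32 to 0.0565 and TDG from -0.18 to 0.30 (-0.0096 with the block). Between the controls, TET1 ran from -0.13 to 0.19 and TDG from -0.285 to 0.15 (0.0075 with upper-quartile scaling and 0.0067 with no filter). With the block, signs were followed only for members that had passed in that fit, and 0 of those changed sign. This 0 cannot be set beside the 57, which were counted over all members.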
